A study of Xenopus laevis with 8 samples.

Results

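Proteasome and ubiquitin conjugation genes were followed in foregut endoderm of the frog Xenopus laevis, the inner germ layer from which the anterior gut and its organs form. Members were all probe sets whose deposited name column held a symbol starting with psma, psmb, psmc, psmd, psme, ube2, uba or usp followed by a letter or digit. The rule found 38 probe sets for 27 genes among the 15491 tested. They fell into 12 probe sets of the proteasome core (10 genes), 6 of its regulatory cap (5 genes), 14 of E2 conjugating enzymes (8 genes) and 6 of ubiquitin-specific proteases (4 genes). No probe set was named for a psme activator or a uba enzyme. All 27 names were found in RefSeq as a symbol or a synonym. The name usp46 was there a synonym of usp12b, and it is written here as deposited.

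RNA was measured on 8 Affymetrix arrays, 1 per sample. Cultures in a saline medium began with foregut of stage 15 embryos and ended at stage 23, 4 samples as endoderm without mesoderm (called alone) and 4 as intact foregut with the mesoderm left on (called with mesoderm). Only endoderm was used for RNA: the mesoderm was taken off the intact explants after culture. Samples are labelled set 1 to set 4, with 1 sample of each condition in each set, and the labels do not say whether a set is a clutch, a dissection day or an array batch, nor how many embryos it holds. The p-values for the condition, with arrays paired by set, therefore weigh the mean within-set difference against the spread of such differences across these sets. The estimate of that spread was moderated over all tested probe sets. That spread may be technical. No other allele or agent is named in the labels, and no strain or sex.

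The proteasome is the large protease that unfolds and cuts proteins marked with ubiquitin. Its core is a stack of rings, with alpha subunits in the outer rings and beta subunits, some of them catalytic, in the inner rings. The regulatory cap sits on the core: its ATPase subunits, encoded by psmc genes, unfold the substrate, and the psmd subunits bind it and take off its ubiquitin. Ubiquitin reaches a substrate through an E1 activating enzyme, an E2 conjugating enzyme and an E3 ligase, and ubiquitin-specific proteases remove it. In early frog embryos this system removes maternal proteins, cell cycle regulators and signalling proteins such as beta-catenin. The roles given for single members are known from yeast and mammals. Xenopus laevis carries most genes as a pair of near-identical copies from a genome duplication, and which copy a probe set reads was not tested.

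Array medians over the tested probe sets lay between 128.5 and 132.2 on the linear intensity scale. Endoderm markers were present: 13 of 15 endoderm marker probe sets had a mean over log2 6, a level just above the 95th percentile of 44 negative control probe sets (5.88). These 44 are the array's control probe sets for bacterial and tag sequences. The bacterial ones carry signal where such RNA is added to a sample, and whether it was added here was not tested. Blood and myeloid markers were higher with mesoderm in 11 of 11 probe sets, and 2 of these were called, lcp1 (log2 difference 1.69, limma adjusted p = 0.049) and csf2rb (1.06, limma adjusted p = 0.0292). Their summed log2 level was 10.4 to 11.6 alone and 11.7 to 12.9 with mesoderm, and the part of such cells in the results below was not tested. In bulk samples, fewer cells of a type and less RNA per cell cannot be told apart. Set 4 stood apart: the SD of the differences between its 2 arrays over all tested probe sets was 0.528, against 0.25, 0.312 and 0.331 in sets 1 to 3.

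The first comparison asked whether these genes differ in endoderm according to the mesoderm beside it. No member was called higher or lower with mesoderm, 0 of 38 in limma with the set as a block at an adjusted p under 0.05, where 0.387% of all tested probe sets were called (0.258% higher and 0.129% lower). In the same fit 2 of 38 members had an unadjusted p under 0.05, 1 higher and 1 lower, as had 9.35% of all tested probe sets (3.93% higher and 5.42% lower). Without the block, limma called 0 of 38 members and 0 of all 15491 probe sets, and 0 of 38 members had an unadjusted p under 0.05 (2.48% of all). In 0 of 38 members did the 4 arrays of one condition lie wholly above those of the other (1.03% of all tested probe sets higher and 0.859% lower). The 95% intervals came from limma's variance, moderated over all tested probe sets. Those of 37 of 38 members lay within 1 log2 unit, a 2-fold change, of 0 in both directions. So did those of 15094 of all 15491 tested probe sets. The median half-width of the intervals was 0.319. The exception among the members was the psma2 probe set Xl.2546.1.S1_at, whose interval ran from -1.02 to 0.47. In psmb1, psmd12, psmb4, psmc6, psmb3 and psmd14 the SD of the 4 differences was 0.87, 0.79, 0.69, 0.69, 0.67 and 0.64. In usp25 Xl.9603.1.S1_at it was 0.40, around a mean of -0.376. For these the bound rests on the moderated variance, and their own spread does not exclude a 2-fold change.

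**Figure D1:**
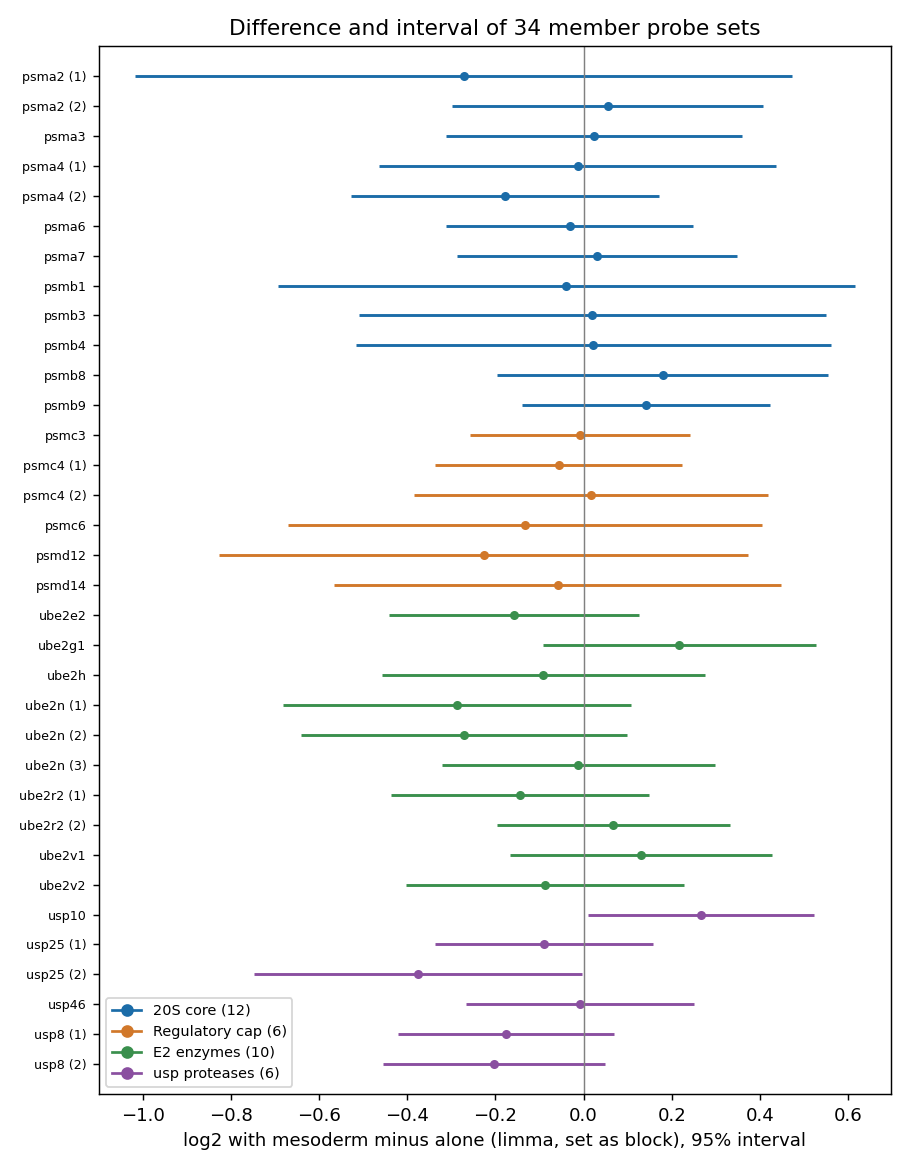
Log2 difference with mesoderm minus alone of 34 of the 38 member probe sets (points; limma with set as a block, 4 sets) with its 95% interval (lines), coloured by group; numbers in brackets tell apart probe sets of the same gene. The intervals of 32 of them span 0, and those of usp10 and of 1 usp25 probe set end close to it.

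The medians of the groups lay near 0. With mesoderm minus alone, the median log2 difference was 0.021 over the core, -0.058 over the cap, 0.028 over the E2 enzymes and -0.13 over the ubiquitin-specific proteases, and 0.0065 over all tested probe sets. Core and cap differed by 0.079, core and E2 by -0.0064, and cap and E2 by -0.085, each as a difference of medians. The signs of such small values depended on the fit: with array weights the cap median was 0.074, core minus E2 0.084 and cap minus E2 0.047, and with 1 mean per name the E2 median was -0.063, core minus E2 0.084 and cap minus E2 0.0046. The medians within sets show what these averages hide. The core median was 0.052, 0.24 and 0.28 in sets 1 to 3 and -0.58 in set 4, and the cap median was 0.11, 0.14 and 0.25 in sets 1 to 3 and -0.84 in set 4. The E2 median was 0.09, -0.15, 0.076 and -0.00069 in sets 1 to 4. Over the 10 E2 probe sets whose single values are given here, chosen so after the data were seen, it was 0.0021, -0.15, 0.13 and -0.36, with 7 of the 10 lower in set 4 and a median difference of -0.090 over the 4 sets. Core and cap thus stood above 0 in 3 sets and below 0 in the other, the E2 median in set 4 depended on which probe sets were counted, and all tested probe sets had medians between -0.03 and 0.05 in every set.

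**Figure D2:**
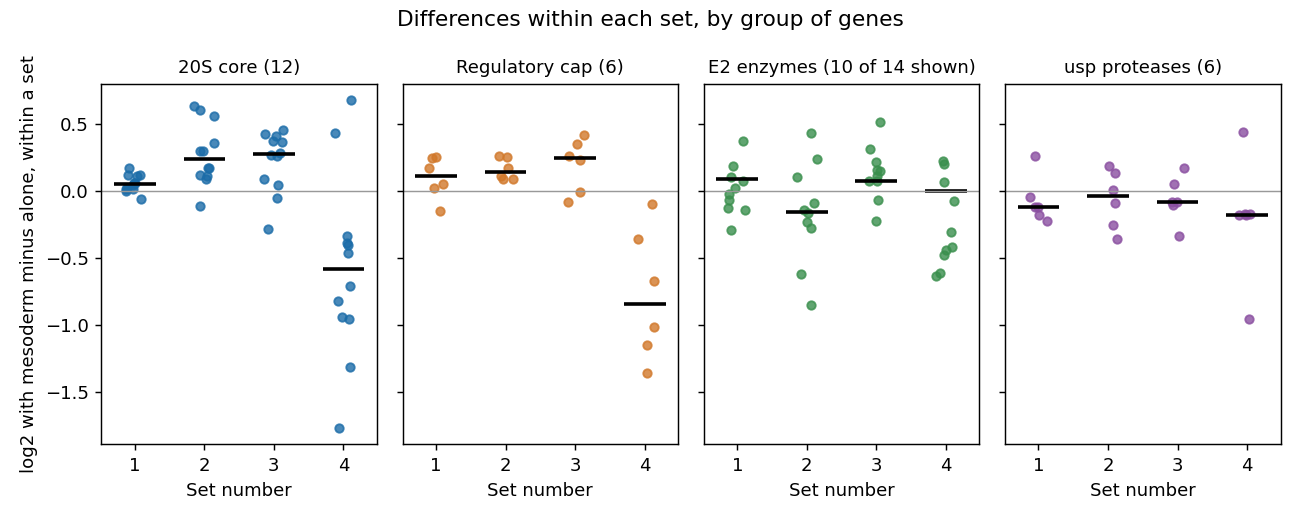
Log2 difference with mesoderm minus alone within each set (vertical axis) against set number (horizontal axis), 1 point per member probe set, in a panel per group; black bars are medians over all members, and 4 E2 probe sets are not drawn. In set 4 the core and cap medians are -0.58 and -0.84, and the 2 core points above 0 are psmb8 and psmb9.

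Alpha subunits build the outer rings and the gate of the core. The psma2 probe set Xl.2546.1.S1_at had log2 intensities of 8.12, 9.43, 8.85 and 9.71 alone and 8.12, 9.73, 9.22 and 7.95 with mesoderm in sets 1 to 4. Its set 4 array with mesoderm was the lowest of the 8, and its set 4 array alone was close to the highest. The difference was -1.76 in set 4 and 0.0 to 0.37 in the other sets, with a mean of -0.27 ± 1.01 (SD of 4 differences; limma adjusted p = 0.869). The other psma2 probe set, Xl.7971.1.A1_at, differed by 0.17, 0.09 and 0.41 in sets 1 to 3 and by -0.46 in set 4.

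For psma4, the probe set Xl.6095.1.S1_at read 6.75, 8.06, 7.92 and 8.20 alone and 6.86, 8.42, 8.20 and 7.38 with mesoderm. It was lowest in both arrays of set 1 and turned from higher to lower with mesoderm in set 4 (-0.82). The psma4 probe set Xl.921.1.S1_at read 8.77, 9.72, 9.77 and 9.87 alone and 8.78, 9.61, 9.86 and 9.16 with mesoderm. It differed by -0.71 in set 4 and by no more than 0.11 in either direction in the other sets.

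The psma6 probe set Xl.15878.1.S1_at read 7.75, 8.97, 9.02 and 9.40 alone and 7.79, 9.09, 9.06 and 9.06 with mesoderm. The set mattered far more to it than the condition: both arrays of set 1 lay over 1 log2 unit below all the others, and the mean difference with mesoderm was -0.031 ± 0.20 (limma adjusted p = 0.962). For psma3 (Xl.2562.1.S1_at) the differences were -0.06, 0.17, 0.38 and -0.40, and for psma7 (Xl.4403.1.S1_at) 0.06, 0.18, 0.27 and -0.39. All 7 alpha probe sets were lower with mesoderm in set 4.

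Beta subunits build the inner rings. The subunits psmb1, psmb3 and psmb4 are structural members that carry no active site. The psmb1 probe set read 7.37, 9.40, 9.27 and 9.76 alone and 7.49, 9.999, 9.69 and 8.45 with mesoderm, a range of over 2 log2 units. It differed by 0.12, 0.60 and 0.43 in sets 1 to 3 and by -1.31 in set 4, for a mean of -0.04 ± 0.87 (limma adjusted p = 0.982). The psmb3 probe set read 7.82, 9.11, 9.33 and 9.69 alone and 7.95, 9.74, 9.59 and 8.75 with mesoderm. Like psmb1, it was lowest in set 1, higher with mesoderm in sets 1 to 3 and lower in set 4 (-0.94). The psmb4 probe set read 8.07, 9.69, 9.63 and 10.01 alone and 8.09, 10.25, 10.09 and 9.06 with mesoderm, with a set 4 difference of -0.95.

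The remaining beta members, psmb8 and psmb9, are catalytic subunits of the immunoproteasome, the form of the core made in immune cells and after interferon. The psmb8 probe set read 5.01, 4.32, 5.16 and 4.60 alone and 5.03, 4.62, 4.88 and 5.28 with mesoderm. Those of psmb9 lay between 5.09 and 5.53. Both lay below log2 6, near the negative controls, whose array means were 4.25 to 4.72. In set 4 psmb8 differed by 0.68 and psmb9 by 0.44, and the median negative control differed by 0.365 in that set, so no change of these low values was read.

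In the cap, the ATPase ring is encoded by psmc3, psmc4 and psmc6 among the members. The psmc6 probe set read 8.33, 9.49, 8.96 and 9.59 alone and 8.50, 9.58, 9.31 and 8.44 with mesoderm. It was higher with mesoderm in sets 1 to 3 (0.17, 0.09 and 0.35) and lower in set 4 (-1.15). The psmc4 probe set Xl.2671.1.A1_at read 7.96, 9.11, 9.03 and 9.39 alone and 8.21, 9.37, 9.26 and 8.72 with mesoderm. Its differences in sets 1 to 3 were nearly equal, 0.25, 0.26 and 0.23, against -0.67 in set 4. The other psmc4 probe set, Xl.1788.1.A1_at, and that of psmc3 varied less: their differences lay between -0.35 and 0.11 and between -0.10 and 0.09.

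The other cap members are psmd12, a scaffold subunit of the lid, and psmd14, the metalloprotease of the lid that cuts ubiquitin off substrates. The psmd12 probe set read 8.07, 9.13, 8.63 and 9.46 alone and 7.92, 9.31, 9.05 and 8.11 with mesoderm, with a set 4 difference of -1.35. The psmd14 probe set read 7.03, 8.49, 7.84 and 8.46 alone and 7.27, 8.75, 8.11 and 7.45 with mesoderm. In psmd14 the differences of sets 1 to 3 again lay close together at 0.25, 0.27 and 0.26, against -1.01 in set 4, and the mean was -0.059 ± 0.64 (limma adjusted p = 0.961).

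**Figure D3:**
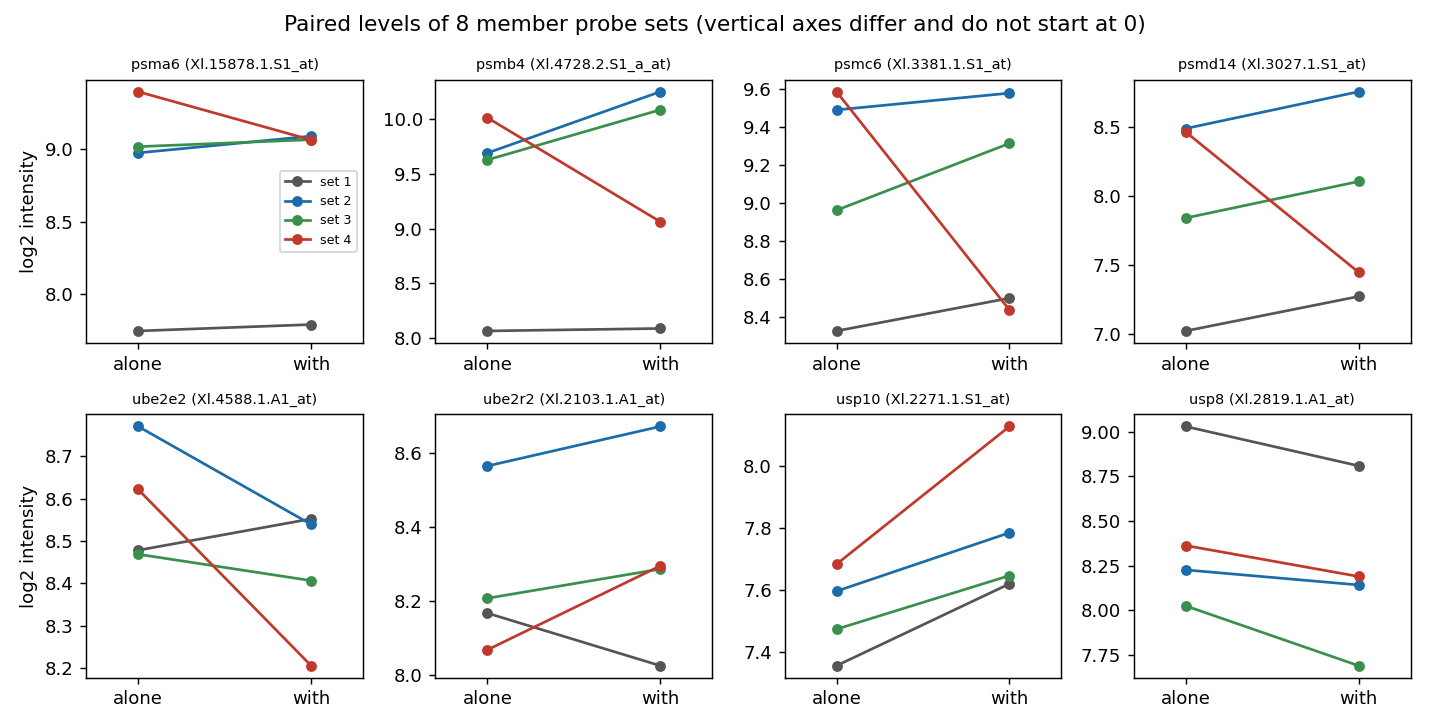
Log2 intensity alone and with mesoderm, joined within each set, for 8 member probe sets; the vertical axes differ and do not start at 0. In the top row, of core and cap genes, set 4 (red) goes down while the other sets go up or stay level, and the bottom row, of E2 and usp genes, has other orders, with usp10 up and usp8 down in all 4 sets. The 8 are a selection and do not stand for their groups. Not drawn are cap members of another order, such as psmd12 (-0.15 in set 1). Nor are E2 members that fell in set 4, such as ube2h (-0.63) and ube2v2 (-0.47).

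Over the 16 core and cap probe sets above log2 6, all 16 were lower with mesoderm in set 4, by 0.097 to 1.76, of which 10 were lower by over 0.5. Of the same 16, 11 were higher in each of sets 1 to 3 and lower in set 4. The core probe sets under log2 6, psmb8 and psmb9, were higher in set 4. Over all 18 core and cap probe sets, 16 were thus lower in set 4, and 11 had the order of higher in sets 1 to 3 and lower in set 4. Without a filter on level, that order was found in 0 of 14 E2 and 0 of 6 usp probe sets. It was so found in 11 of 38 members, and in 8.78% of all tested probe sets. Being lower in set 4 held for 28 of 38 members and 45.7% of all tested probe sets, and being lower there by over 0.5 for 13 of 38 members and 16.9%. Among all tested probe sets over log2 6, as the 16 were, 57.2% were lower in set 4, 22.3% lower by over 0.5, and 11.6% higher in sets 1 to 3 and lower in set 4. These counts describe a pattern seen in the values, in a single set, and carry no test.

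Control probe sets for beta-actin moved with the same arrays. The log2 level at the 5′ end minus that at the 3′ end, a common measure of how complete the labelled RNA is, was -2.43, 0.013, -0.64 and 1.32 alone and -2.32, 0.61, 0.58 and -1.003 with mesoderm in sets 1 to 4. The core probe sets over log2 6 had median deviations from their own 8-array mean of -0.87, 0.30, 0.22 and 0.55 alone and -0.81, 0.60, 0.40 and -0.29 with mesoderm. The cap had -0.67, 0.33, -0.071 and 0.53 alone and -0.59, 0.52, 0.24 and -0.33 with mesoderm. Beta-actin, core and cap were each lowest on the arrays of set 1 and next lowest on the set 4 array with mesoderm. The same value for GAPDH ran otherwise, at -2.29, -3.05, -3.82 and -3.26 alone and -2.42, -3.06, -3.35 and -3.31 with mesoderm: it was highest on the arrays of set 1, and the set 4 array with mesoderm was not set apart. With mesoderm minus alone, the beta-actin value differed by 0.11, 0.60, 1.22 and -2.32, and the corresponding GAPDH value by -0.13, -0.011, 0.47 and -0.047. The part of RNA quality in the core and cap result was not tested.

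**Figure D4:**
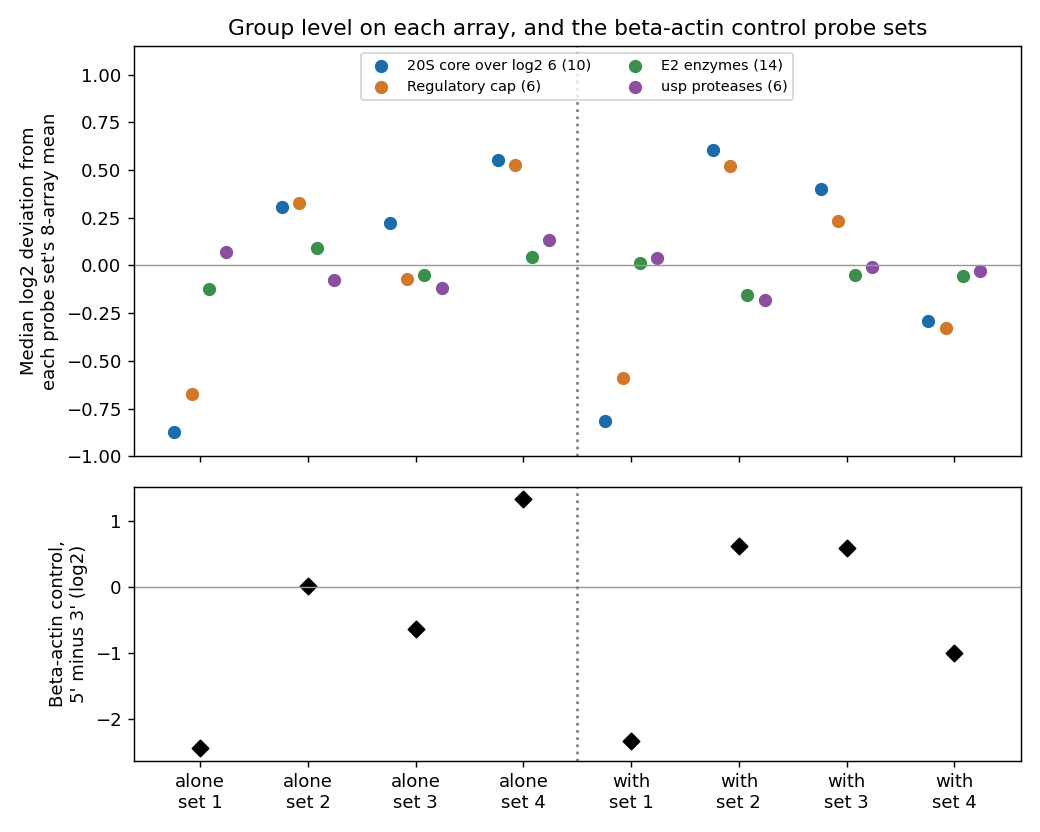
Upper panel, median log2 deviation of each group's probe sets from their 8-array means on each array; lower panel, log2 level of the beta-actin control at the 5′ end minus the 3′ end. Core and cap run from -0.87 to 0.60, and the E2 and usp medians stay between -0.18 and 0.13. Not drawn are 11 E2 probe sets tied to the family only through RefSeq. Their median deviation was -0.31 on the set 4 array with mesoderm.

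Lists of other cell type markers also had set 4 medians away from 0, as had the negative controls. With mesoderm minus alone, the median of 7 neural and epidermal marker probe sets was 0.48 in that set, with 2 of the 7 over log2 6. The 14 mesoderm marker probe sets had a set 4 median of 0.41 and the 4 muscle ones 0.60, against 0.365 for the negative controls. Over log2 6 were 7 of the 14 mesoderm probe sets, with a summed log2 level of 10.6 to 11.5 alone and 10.8 to 11.5 with mesoderm, and 1 of the 4 muscle ones, at 7.43 to 8.17 alone and 7.63 to 8.48 with mesoderm. The summed log2 level of the neural and epidermal list was 8.12 to 9.998 alone and 9.05 to 9.42 with mesoderm. The set 4 median of the 15 endoderm marker probe sets was -0.23. The part of such cell types in the core and cap values was not tested.

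Leaving out set 4 turned the median of the cap to 0.18 and raised that of the core to 0.20, with the E2 median at 0.017 and the usp median at -0.12. Then 17 of 18 core and cap, 8 of 14 E2 and 2 of 6 usp probe sets were above 0. The core and cap count largely restates the pattern of sets 1 to 3 and set 4 given above, and is no separate evidence. Over all tested probe sets, the median of the mean differences in sets 1 to 3 was -0.011, and over those above log2 6 it was 7.8e-05. In the fit on these 3 sets, no member was called in limma (0 of 38, against 1.08% of all tested probe sets higher and 0.691% lower). The unadjusted p was under 0.05 for 6 higher members and 1 lower member, and for 7.17% of all tested probe sets on the higher side and 7.49% on the lower. The 6 were 1 psma4 probe set, psmb1, psmb3, psmb4, 1 psmc4 probe set and psmd14. Among them psmb1 had the smallest p, with a difference of 0.38 (limma adjusted p = 0.153, 3 sets). The 1 lower member was the ube2r2 probe set Xl.1848.1.A1_at (-0.26, limma adjusted p = 0.263). Leaving out one of the other sets also gave 0 calls among the 38 members in limma. Without set 1, 0.00646% of all tested probe sets were called in each direction, and 0 members were past the unadjusted threshold (2.56% of all higher, 3.87% lower). Without set 2, 0% of all were called, and 0 members were past the unadjusted threshold (2.56% higher, 2.94% lower). Without set 3, 0.0323% of all were called higher and 0.0452% lower, and past the unadjusted threshold there were 0 higher members (3.26% of all) and 2 lower ones (5.02%).

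E2 enzymes carry activated ubiquitin, or a related protein, to the substrate. The enzyme ube2n (Ubc13) builds ubiquitin chains that serve in signalling and DNA repair rather than degradation, together with the inactive partners ube2v1 and ube2v2. Of its 3 probe sets, Xl.24788.1.S1_at read 9.79, 10.21, 10.28 and 10.64 alone and 9.82, 9.37, 10.40 and 10.19 with mesoderm. It was lower with mesoderm in sets 2 and 4 (-0.85 and -0.44) and close to level in the others, with a mean of -0.287 ± 0.45 (limma adjusted p = 0.698). The probe set Xl.24788.1.S1_s_at, of the same design cluster, differed by -0.62 in set 2 and -0.61 in set 4. Xl.24991.1.A1_at differed by -0.16 and -0.31 in those sets, and by 0.11 and 0.31 in sets 1 and 3. The partner ube2v2 differed by 0.19, -0.14, 0.07 and -0.47, and ube2v1 by -0.06, 0.44, 0.22 and -0.07.

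**Figure D5:**
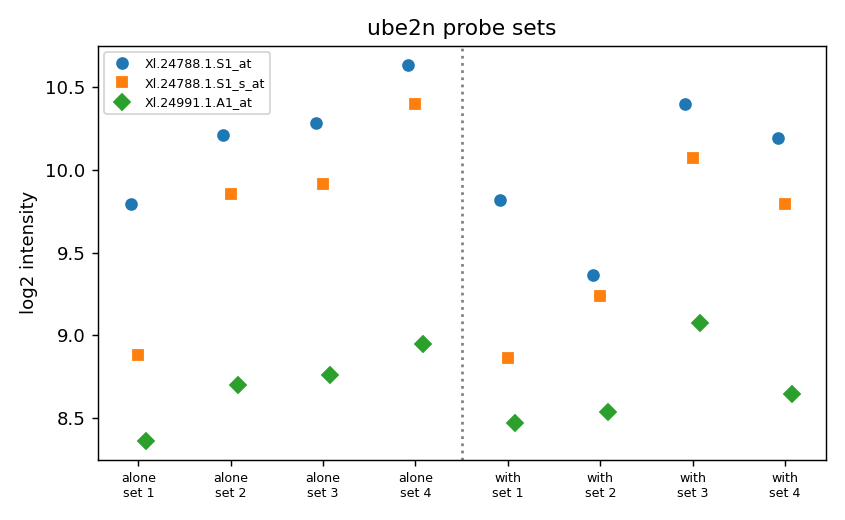
Log2 intensity (vertical axis, not starting at 0) of the 3 ube2n probe sets on the 8 arrays (horizontal axis); each marker shape is a probe set. The pair of probe sets from 1 design cluster is lower with mesoderm in sets 2 and 4.

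Among the E2 enzymes that serve degradation, ube2r2 works with cullin ligases. Its probe set Xl.1848.1.A1_at read 9.02, 8.75, 8.37 and 8.25 alone and 8.73, 8.47, 8.15 and 8.45 with mesoderm, lower by 0.22 to 0.29 in sets 1 to 3 and higher by 0.21 in set 4. Its other probe set, Xl.2103.1.A1_at, differed by -0.14, 0.11, 0.08 and 0.23, so the 2 probe sets of the gene had the same sign only in sets 1 and 4. The ube2g1 probe set, for an enzyme of cullin ligases and of degradation at the endoplasmic reticulum, read 9.52, 9.97, 9.84 and 9.88 alone and 9.89, 9.88, 10.36 and 9.95 with mesoderm. Its difference of 0.22 ± 0.28 came mostly from sets 1 and 3 (limma adjusted p = 0.707). Differences in ube2h were -0.13, 0.24, 0.15 and -0.63, and those in ube2e2 were 0.07, -0.23, -0.06 and -0.42.

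The ubiquitin-specific proteases held both members with an unadjusted p under 0.05. The usp10 probe set, for a protease known to stabilise p53, read 7.36, 7.60, 7.47 and 7.68 alone and 7.62, 7.78, 7.65 and 8.13 with mesoderm. It was higher with mesoderm in 4 of 4 sets, by 0.26, 0.19, 0.17 and 0.44, although the 2 groups overlapped. The mean difference was 0.27 ± 0.12, a 1.20-fold change (limma adjusted p = 0.507). The usp25 probe set Xl.9603.1.S1_at read 7.91, 7.67, 8.11 and 8.80 alone and 7.79, 7.31, 8.03 and 7.84 with mesoderm. It was lower in 4 of 4 sets, but by 0.95 in set 4 and by 0.08 to 0.35 in the others (-0.376 ± 0.40, limma adjusted p = 0.527). The other usp25 probe set, Xl.18074.1.S1_at, lay at 3.81 to 4.44, at the level of the negative controls.

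For usp8, which removes ubiquitin from receptors on endosomes, both probe sets were lower with mesoderm in 4 of 4 sets. Xl.2819.1.A1_at read 9.03, 8.23, 8.03 and 8.36 alone and 8.81, 8.14, 7.69 and 8.19 with mesoderm (-0.203 ± 0.10, limma adjusted p = 0.655). Xl.21948.1.S1_at read 7.99, 7.47, 6.95 and 7.63 alone and 7.82, 7.21, 6.85 and 7.46 with mesoderm (-0.177 ± 0.062, limma adjusted p = 0.704). The spread of these differences was small, yet levels differed more between sets than between conditions, set 1 being highest in both. The usp46 probe set differed by -0.04, 0.14, 0.05 and -0.18. Having the same sign in all 4 sets held for 5 of 38 members, among them usp10, 1 usp25 and both usp8 probe sets, and for 18.7% of all tested probe sets.

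The second comparison asked how far the sets differed, whatever the condition. By limma's F test over the set term of the same fit, 17 of 38 members differed between sets at an adjusted p under 0.05, against 30.7% of all tested probe sets and 39.7% of those over log2 6. By group these were 7 of 12 core, 2 of 6 cap, 6 of 14 E2 and 2 of 6 usp probe sets. At an adjusted p under 0.01 there were 4 of 38 members, among them psma6, against 7.66% of all. In psmb1, the mean of set 1 lay 2.00 log2 units below that of the other sets (F test in limma, adjusted p = 0.0154), and in psmb4 1.71 below (adjusted p = 0.0139). In usp8 Xl.2819.1.A1_at it lay 0.81 above (adjusted p = 0.0104). Both arrays of set 1 lay below the other 6 in 14 of 38 members, 7 of the core, 3 of the cap, 4 E2 and 0 usp, and in 10.4% of all tested probe sets. Without set 1, 1 of 38 members differed between the remaining sets (9.44% of all). The count was 10 of 38 without set 2 (10.7% of all), 15 of 38 without set 3 (19.7%) and 28 of 38 without set 4 (62.7%).

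Some further probe sets carry names from the deposited table that only RefSeq ties to these families through older names or gene IDs, and they were gathered after values had been seen. There were 44: 21 of the core and cap, 4 of E1-type enzymes, 11 of E2 enzymes and 8 of ubiquitin-specific proteases. None of the 44 was called in limma with the set as a block, where 4 had an unadjusted p under 0.05, near the shares of 0.387% and 9.35% over all tested probe sets. Of the 21 core and cap probe sets, 17 were lower with mesoderm in set 4, 10 of them by over 0.5. Higher in sets 1 to 3 and lower in set 4 were 7 of the 21. Of the 11 E2 probe sets, 8 were lower in set 4, 4 of them by over 0.5, and 1 had that order. The set 4 median was -0.41 over these core and cap probe sets and -0.45 over these E2 probe sets. Taken apart, it was -0.89 over 3 core probe sets, all 3 lower by over 0.5 and 2 of that order. Over 18 cap probe sets it was -0.28, with 14 lower, 7 of them by over 0.5, and 5 of that order. In set 4 these cap probe sets thus had a higher median than these E2 ones, the reverse of the members. Lower in set 4 were also 3 of the 4 E1-type and 5 of the 8 usp probe sets. Over all tested probe sets the shares were 45.7% lower, 16.9% lower by over 0.5 and 8.78% with that order. The cap ATPase psmc2 differed by 0.42, 0.51 and 0.53 in sets 1 to 3 and by -1.32 in set 4, and it was called once set 4 was left out (0.48, limma adjusted p = 0.048). That was the 1 call among the 44 in that fit, where 1.08% of all tested probe sets were called higher and 0.691% lower. The core genes psma1, psma6 (Xl.15825.1.S1_at) and psmb6 differed in set 4 by -0.81, -0.93 and -0.89. Probe sets of the cap gene psmd6 did not share a sign. Xl.22611.1.A1_at was lower in 4 of 4 sets (-0.31). Xl.8757.1.S1_at and Xl.8757.2.A1_at were higher in 4 of 4 (0.29 and 0.28). Xl.8757.1.S1_a_at had a mean of 0.14 and was lower in set 4 (-0.25). Of the 18 cap probe sets, 4 were higher in set 4: psmd6 by 0.41 and 0.55, psmd8 Xl.25503.1.A1_at by 0.38 and psmc5 by 0.10. The 3 probe sets of the E1 enzyme uba1 did not run alike: Xl.3404.1.S1_at differed by 0.07, 0.38, 0.21 and -0.22, Xl.21571.1.S1_s_at by 0.22, 0.60, 1.52 and -1.98, and Xl.21571.1.S1_at by -0.069, 0.26, 0.0098 and 0.36.

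Other genes of the pathway were followed in lists, of which no probe set was called in either direction. Proteasome assembly and regulation had 5 probe sets, 0 of them above 0, with a median of -0.062. The proteasome inhibitor psmf1 differed by -0.31, -0.36 and -0.46 in sets 1 to 3 and by 0.37 in set 4, the reverse of the core and cap order. The rest of this list was lower in set 4: psmg3 by -0.42, adrm1 by -0.52 and -0.61, and paaf1 by -0.42. The set 4 median was -0.42 for this list, -0.25 for ubiquitin and ubiquitin-like proteins and -0.20 for shuttle and segregase genes. It was 0.044 for E3 ligases and cullins and -0.37 for other deubiquitinases. Ubiquitin and ubiquitin-like proteins had 9 probe sets, 6 above 0, with a median of 0.041, and the brightest, the ubc probe set Xl.5846.6.S1_at, differed by 0.14, 0.18, 0.16 and -0.19. Shuttle and segregase genes had 9 probe sets, 4 above 0, and the brightest was vcp, the ATPase that pulls ubiquitinated proteins out of complexes, at 0.26, 0.30, 0.34 and 0.03 (mean 0.23, limma adjusted p = 0.605). E3 ligases and cullins had 21 probe sets, 12 above 0, with a median of 0.053, and the ligase cbl differed by 0.11 (limma adjusted p = 0.872). Other deubiquitinases had 2 probe sets, both above 0, of which eif3h differed by 0.0018 (limma adjusted p = 0.998).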

How the data were processed

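The authors deposited RMA values per probe set, per the submitters' processing notes, as intensity on the linear scale. RMA corrects background, normalizes by quantiles and summarises probes. Its version is not given in the sources used here. The headers name 2 data sets, so values may have been normalized with arrays not analysed here. The deposited tables were identical in 124888 of 124888 cells. Log2 was taken, and 120 of 15611 probe sets, controls, were left out. The main test was limma 3.58.1 in R 4.3.3 (lmFit and eBayes; condition plus set), with Benjamini-Hochberg adjustment over 15491 probe sets and calls at an adjusted p under 0.05. Set numbers paired the arrays: paired arrays deviated together from the means of their condition (r = 0.84, 0.85, 0.69 and 0.32 over all probe sets, minimum 0.1; 0.97, 0.87, 0.66 and -0.044 over the 38 members, so set 4 did not pair among these). The procedure was tested on simulated data. The single values of 4 E2 probe sets are not reported here, though the counts and medians include them. Members and lists were chosen with earlier results of these data known. Alternatives covered the block, array weights, variance model, normalization, a filter at log2 6, means per name, and leaving out each set. Named members were any called, then those of 1 sign in all 4 sets with the 6 highest and 6 lowest moderated t, the 2 brightest of each subgroup, the 4 with the largest F between sets, and psmb8, psmd14 and ube2n; the other members were added after values were seen. The number of arrays limits precision. No position or sequence is given, since the array's genome build is not named.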

Additional observations from a re-analysis of the deposited data

Results flagged for a closer look

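Of 68 groups of 4 arrays, 1 per condition for each of 34 member probe sets, 3 held an array set apart from the other 3 by Dixon's ratio of gap to range (above the 95% critical value), where chance gives about 1 in 20. Set 1 was low in psma4 Xl.921.1.S1_at alone (ratio 0.866) and in psma6 Xl.15878.1.S1_at with mesoderm (ratio 0.98). With mesoderm, set 3 was high in ube2g1 Xl.5568.2.A1_a_at (ratio 0.851).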

How the results depend on the processing

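No alternative gave a called member at an adjusted p under 0.05: without the set as a block, 0 were called higher and 0 lower, and leaving out each set in turn gave 0 to 0 in each direction. At an unadjusted p under 0.05, 1 was higher and 1 lower. Members that differed between sets numbered 17, 4 at an adjusted p under 0.01, and 1 to 28 when a set was left out. Over the alternatives of 17 named probe sets, 194 values kept their sign and side of the threshold and 26 turned sign, in 9 probe sets, whose main differences lay between -0.23 and 0.023. Among these 17 the lowest limma adjusted p was 0.226, and psmb1, not among them, had 0.153 in limma without set 4. Array weights turned psmc6 to 0.12, psmd12 to 0.023, psmd14 to 0.19, psma6 to 0.047 and ube2n Xl.24991.1.A1_at to 0.057. Cyclic loess turned psma6 to 0.014 and the same ube2n probe set to 0.032, repeated quantile normalization turned them to 0.025 and 0.037, and the mean per name turned psmc4 to -0.020. Leaving out a set gave ranges of -0.095 to 0.16 for psma3, -0.16 to 0.35 for psmb4, -0.18 to 0.34 for psmb3, -0.30 to 0.20 for psmc6, -0.063 to 0.25 for psmc4, -0.44 to 0.15 for psmd12, -0.17 to 0.26 for psmd14, -0.080 to 0.069 for psma6 and -0.12 to 0.086 for ube2n. Over only the 10 E2 probe sets whose single values are given, a choice made after seeing the data, the E2 median was -0.090 in place of 0.028. Array weights turned the cap median to 0.074, core minus E2 to 0.084 and cap minus E2 to 0.047, and the mean per name turned the E2 median to -0.063 and these differences to 0.084 and 0.0046. The core median ran from -0.11 to 0.20, the cap median from -0.14 to 0.18, the E2 median from -0.028 to 0.033, core minus E2 from -0.14 to 0.18 and cap minus E2 from -0.17 to 0.16 when a set was left out. The cause was not tested. No median over E1-type members was possible, since none had a name by the rule.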
